A study of Saccharomyces cerevisiae with 13 samples.

Results

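The genes described here are ZWF1, SOL3, SOL4, GND1 and GND2, which encode the enzymes of the oxidative branch of the pentose phosphate pathway in the yeast Saccharomyces cerevisiae. They were taken by name, each has 1 probe set on the array, and they make up 5 of the 5449 S. cerevisiae genes measured. RNA was measured on 13 Affymetrix arrays, 1 for each culture, from glucose-limited, micro-aerobic chemostats fed with furfural, an aldehyde released from plant biomass that inhibits growth. FT30-3 (TMB3400-FT30-3) is a strain evolved to withstand high furfural, and TMB3400 is its less resistant parent. There were 3 cultures of FT30-3 with 15 mM furfural in the feed, 2 with 25 mM and 3 with 36 mM, and 2 of TMB3400 with 15 mM and 3 with 25 mM. TMB3400 was not sustained in the chemostat at 36 mM, and no culture analysed here was free of furfural. The sources used here do not say whether FT30-3 is 1 clone. They describe the replicates as biological.

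Glucose 6-phosphate can leave glycolysis through the oxidative branch, which regenerates NADPH and ends in ribulose 5-phosphate. Zwf1, glucose-6-phosphate dehydrogenase, makes the first NADPH of the branch, Sol3 and Sol4 are 6-phosphogluconolactonases that open the lactone ring, and Gnd1 and Gnd2, 6-phosphogluconate dehydrogenases, make the second NADPH. In yeast, Gnd1 is the major form of the last enzyme and Gnd2 the minor one. NADPH is the electron donor of several enzymes that reduce furfural, and the series' title concerns NADPH-dependent furfural reduction, so the question here is whether the genes of this NADPH source differed between the strains or with furfural. SOL3 (YHR163W) and GND1 (YHR183W) lie on chromosome VIII with 20 protein-coding genes between them in the RefSeq gene table. Their paralogues SOL4 (YGR248W) and GND2 (YGR256W) lie on chromosome VII with 7 between them, and ZWF1 (YNL241C) lies on chromosome XIV.

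Array medians of S. cerevisiae probe sets lay between 1412 and 1663 intensity units. Probe sets for another yeast, Schizosaccharomyces pombe, had 95th percentiles between 31.2 and 39.0 units and served as background. All 5 genes were far above background on all 13 arrays. Replicate arrays correlated across genes at r = 0.965 to 0.995 in FT30-3 at 36 mM, where replicate 1 stood apart from the other two, and at 0.985 to 0.994 elsewhere. Before centring, the median gene was 0.13 higher on the log2 scale at 25 than at 15 mM in both strains and 0.17 higher at 36 than at 15 mM in FT30-3. Values below are therefore intensities scaled so that every array has the same median, and changes are log2 differences of these values ± standard error. Adjusted p are from limma over all 5449 genes, with a threshold of 0.05. An array measures relative abundance, so a change in a gene's share of the RNA and a change in total RNA per cell cannot be told apart.

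Few differences in the oxidative branch passed the adjusted threshold. Across 7 comparisons of strain or dose and their interaction, 1 of the 5 genes passed in 1 comparison: GND2 was lower in FT30-3 than in TMB3400 by 0.27 on the log2 scale when both furfural levels were averaged (fold 0.828). In that comparison 11.2% of all genes were called, and in the others 0.679% to 22.2%. ZWF1 and SOL3 had their highest mean in FT30-3 at 36 mM, SOL4 had its lowest mean there, and none of these passed after centring. The 36 against 15 mM comparison depended on scaling, as described below.

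**Figure D1:**
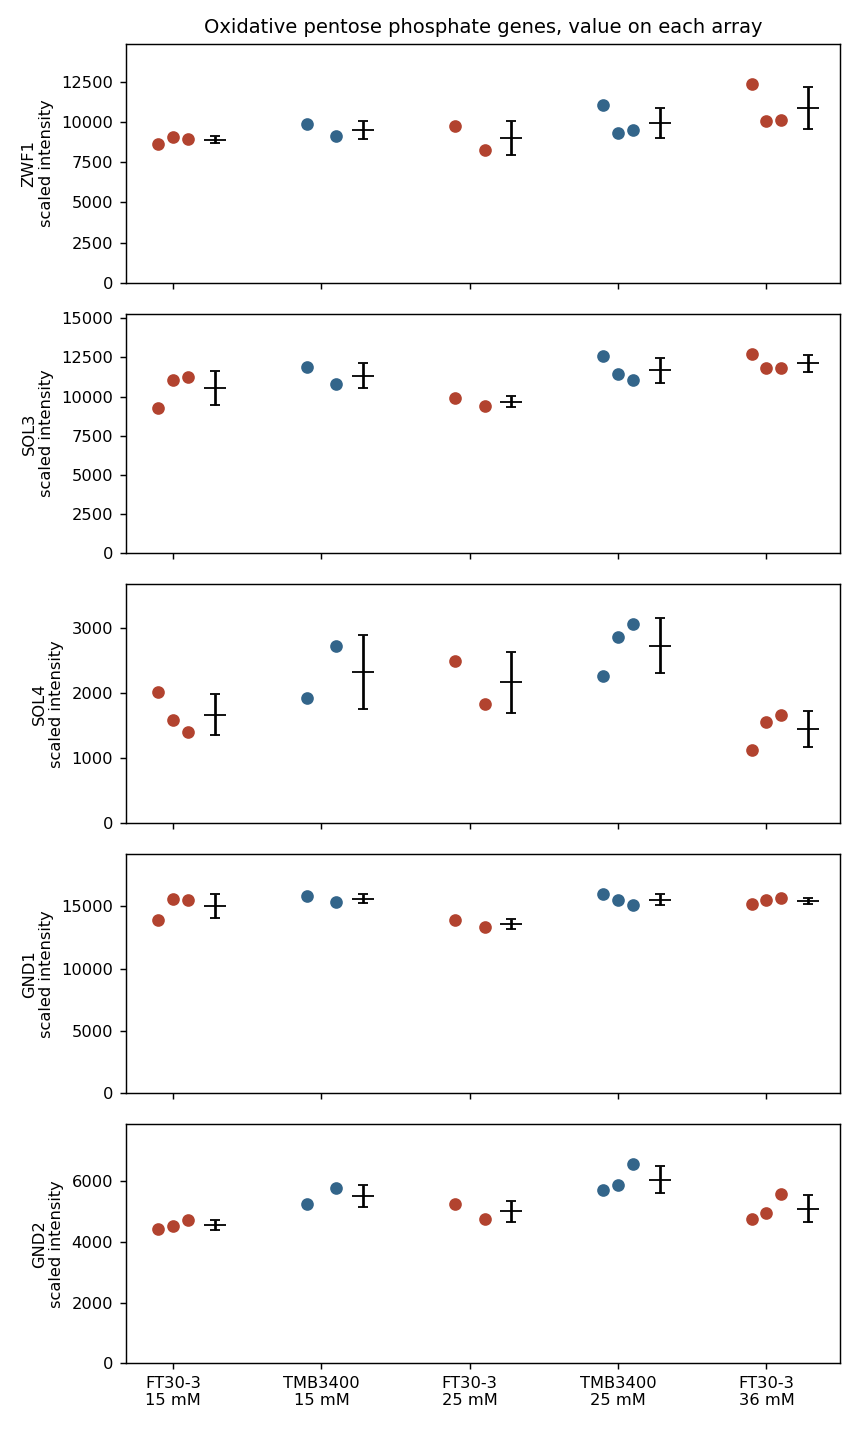
Scaled intensity (linear units, each axis from 0) of ZWF1, SOL3, SOL4, GND1 and GND2 on each array, by strain and feed furfural, with FT30-3 in red and TMB3400 in blue; the black marks are group mean ± SD (n = 2 or 3). GND2 in FT30-3 lay below GND2 in TMB3400 at 15 mM, as for 21.4% of genes, and at 25 mM, as for 21.6%. GND1 stayed between 13320.3 and 15971 on all 13 arrays.

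ZWF1, which encodes the enzyme that commits glucose 6-phosphate to the branch, had scaled intensities of 8653, 9092 and 8948 in FT30-3 at 15 mM, against 9879 and 9110 in TMB3400. At 25 mM it had 9745 and 8273 in FT30-3, against 11026, 9331 and 9502 in TMB3400. At 36 mM FT30-3 had 12367, 10054 and 10126.5. The FT30-3 arrays lay below the TMB3400 arrays at 15 mM by a small margin, as did 21.4% of genes, and overlapped them at 25 mM. The 36 mM arrays were above those of FT30-3 at 15 mM, as for 19.4% of genes, and at 25 mM, as for 18.2%. The strain difference averaged over both levels was -0.12 ± 0.09 (adjusted p = 0.429), with a 95% confidence interval from -0.31 to 0.07. Group means ran from 10849 ± 1315 (SD, n = 3) in FT30-3 at 36 mM down to 8898 ± 224 (n = 3) in FT30-3 at 15 mM, and each group in that order overlapped the next.

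SOL3, the gene of the main lactonase, read 9279, 11055 and 11265 in FT30-3 at 15 mM, against 11884 and 10778.5 in TMB3400. At 25 mM it read 9907 and 9416 in FT30-3, against 12581, 11426 and 11028 in TMB3400. In FT30-3 at 36 mM it read 12719.7, 11795 and 11822. The strains overlapped at 15 mM, and at 25 mM both FT30-3 arrays were below all TMB3400 arrays, as for 21.6% of genes. That difference at 25 mM was -0.27 ± 0.11 and did not pass (adjusted p = 0.187). The order of the group means placed FT30-3 at 36 mM highest (12112 ± 526) and FT30-3 at 25 mM lowest (9661 ± 347), with each group again overlapping the next.

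SOL4, a second lactonase gene, varied most between replicates. It had 2017, 1589.9 and 1404 in FT30-3 at 15 mM, against 1922.5 and 2731 in TMB3400. At 25 mM it had 2499 and 1832 in FT30-3, against 2261, 2868 and 3063 in TMB3400. At 36 mM it had 1133, 1549 and 1663 in FT30-3. The strains overlapped at both levels, and within groups the SD on the log2 scale was 0.23 to 0.36. The averaged strain difference of -0.41 ± 0.16 did not pass (adjusted p = 0.145), and the confidence interval, -0.77 to -0.05, is the widest of the 5 genes in this comparison. SOL4 passed in 1 of 22 alternative settings, with unequal array weights (-0.51, adjusted p = 0.0364, where 16.8% of genes were called). From highest to lowest, the means were those of TMB3400 at 25 mM (2731 ± 419) and 15 mM, then FT30-3 at 25, 15 and 36 mM (1448 ± 279), and each overlapped the next.

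GND1, the gene of the major 6-phosphogluconate dehydrogenase, was the steadiest of the 5 between arrays. It had 13896, 15554.5 and 15532 in FT30-3 at 15 mM, against 15856 and 15359.7 in TMB3400. At 25 mM it had 13873 and 13320.3 in FT30-3, against 15971, 15509.8 and 15086 in TMB3400. At 36 mM it had 15184, 15513 and 15635 in FT30-3. The FT30-3 arrays at 25 mM were the lowest of the 13, with replicate 1 of FT30-3 at 15 mM next above them. The highest group mean was that of TMB3400 at 15 mM (15608 ± 351) and the lowest that of FT30-3 at 25 mM (13597 ± 391). The lowest was apart from the next, FT30-3 at 15 mM (14994 ± 951), by a very small margin (13873 against 13896). The other neighbours in the order overlapped. The averaged strain difference was -0.13 ± 0.06 (adjusted p = 0.203), and its confidence interval ran from -0.25 to 0.002. GND1 read between 69.7% and 91.1% of the highest S. cerevisiae probe set on each array, and whether its signal was compressed at that brightness was not tested.

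GND2, the gene of the minor form, had 4405, 4531 and 4712 in FT30-3 at 15 mM, against 5245 and 5751 in TMB3400. At 25 mM it had 5250.2 and 4750.2 in FT30-3, against 5703, 5877 and 6545 in TMB3400. At 36 mM FT30-3 had 4751, 4929 and 5581. At each level shared by the strains, every FT30-3 array was below every TMB3400 array, as for 21.4% of genes at 15 mM and 21.6% at 25 mM. The share of genes for which this held at both levels was not computed. The group means ran from TMB3400 at 25 mM (6041 ± 444.5) and 15 mM (5498 ± 358) to FT30-3 at 36 mM (5087 ± 437), 25 mM (5000.2 ± 354) and 15 mM (4549 ± 154). Only the last neighbours in this order, FT30-3 at 25 and 15 mM, were apart, by a small margin (4750.2 against 4712). GND1 and GND2 are paralogues, and any sharing of signal between their probe sets was not tested.

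The difference in GND2 was -0.27 ± 0.10 at both 15 mM (adjusted p = 0.272) and 25 mM (adjusted p = 0.169), and -0.27 ± 0.07 averaged over both levels, which passed (adjusted p = 0.0337; confidence interval -0.43 to -0.11). In that averaged comparison 11.2% of all genes were called in either direction and 4.4% as lower, and GND2 ranked 522 of 5449 from the most negative difference. The call was lost without any 1 of 8 arrays, namely replicates 1, 2 and 3 of FT30-3 at 15 mM (adjusted p = 0.0717, 0.0691 and 0.0565), replicate 2 of FT30-3 at 25 mM (0.117), replicates 1 and 2 of TMB3400 at 15 mM (0.0671 and 0.138) and replicates 2 and 3 of TMB3400 at 25 mM (0.0522 and 0.0784). It was also lost with quantile normalization (-0.25, adjusted p = 0.0528, where 10.9% of genes were called). Its value lay between -0.31 and -0.24 under all 22 alternatives. The interaction of strain with dose was 5.27e-05 ± 0.15 for GND2 (adjusted p = 0.9997).

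All 5 genes had values below 0 in FT30-3 against TMB3400 at each level. Their median was -0.11 at 15 mM, against -0.02 over all genes, and -0.27 at 25 mM, against -0.04 over all genes. At 15 mM 45.6% of all genes had values above 0, and at 25 mM 42.8% did. None of the 5 passed at either level alone, where 2.17% and 6.7% of genes were called by limma, and 1 and 3 of them had an unadjusted p under 0.05, against 12.2% and 19.4% of genes. The 424 genes of chromosome XVI had a median of 0.43 in FT30-3 against TMB3400 averaged over both levels, against -0.03 over all genes, and none of the 5 lies there.

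**Figure D2:**
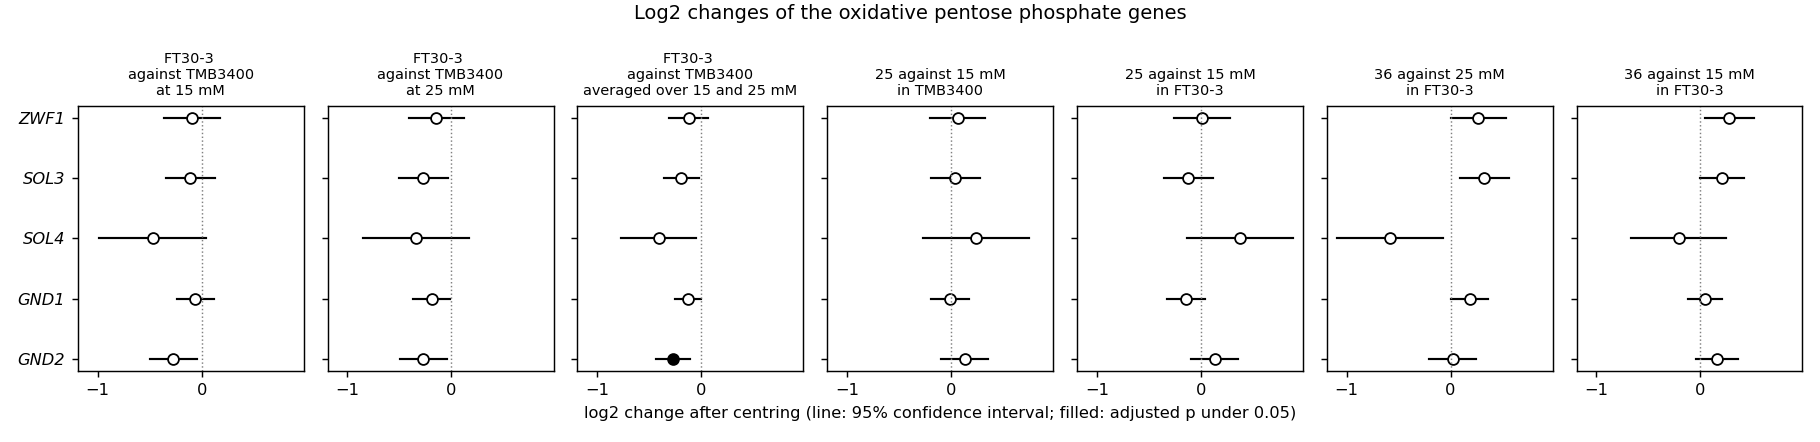
Log2 change of each gene after centring (x axis) in 7 comparisons of strain or furfural level, with lines for the 95% confidence interval, unadjusted for the number of genes, and a filled point where the adjusted p was under 0.05. GND2 in FT30-3 against TMB3400 averaged over 15 and 25 mM is the only filled point.

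At 25 against 15 mM none of the 5 genes passed in either strain, where limma called 2.15% of genes in FT30-3 and 1.6% in TMB3400, and none had an unadjusted p under 0.05. In FT30-3 the changes were 0.01 ± 0.12 for ZWF1, -0.12 ± 0.11 for SOL3, 0.37 ± 0.23 for SOL4, -0.14 ± 0.08 for GND1 and 0.14 ± 0.10 for GND2. All GND2 arrays at 25 mM were above those at 15 mM, as for 12.3% of genes, and all GND1 arrays were below, as for 16.2%. SOL3 and GND1 were above 0 for this step without centring (0.04 and 0.02) and with quantile normalization (0.04 and 0.06). In TMB3400 they were 0.07 ± 0.12 for ZWF1, 0.04 ± 0.11 for SOL3, 0.24 ± 0.23 for SOL4, -0.01 ± 0.08 for GND1 and 0.14 ± 0.10 for GND2, and GND1 was above 0 without centring (0.13) and with quantile normalization (0.12). The confidence intervals of ZWF1 in these comparisons were -0.25 to 0.28 in FT30-3 and -0.20 to 0.33 in TMB3400. The interaction of strain with dose passed for none of the 5 by limma (adjusted p = 0.9997 for each), where 0.679% of genes were called, and 0 of the 5 had an unadjusted p under 0.05, against 3.56% of genes.

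At 36 against 15 mM in FT30-3, the widest step, 22.2% of genes were called after centring and none of the 5 was. ZWF1 had the largest positive value, 0.28 ± 0.11 (adjusted p = 0.0851), and SOL3 had 0.21 ± 0.10 (adjusted p = 0.140). GND2 had 0.16 ± 0.09 (adjusted p = 0.232), GND1 0.04 ± 0.07 (adjusted p = 0.687) and SOL4 -0.21 ± 0.21 (adjusted p = 0.490). The 36 mM arrays were above all 15 mM arrays for ZWF1, SOL3 and GND2, as for 19.4% of genes. The confidence intervals were 0.04 to 0.52 for ZWF1, -0.12 to 0.21 for GND1 and -0.66 to 0.25 for SOL4.

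The scaling of the arrays changed these calls. On the values as deposited, 4 of the 5 passed, with ZWF1 at 0.48 ± 0.11 (adjusted p = 0.00835), SOL3 at 0.40 ± 0.09 (0.00764), GND2 at 0.36 ± 0.09 (0.0121) and GND1 at 0.24 ± 0.07 (0.0223), while SOL4 was at -0.01. By this rule 32.1% of all genes were called, and the median gene was 0.17 higher. With quantile normalization 3 passed, ZWF1 (0.43, adjusted p = 0.0196), SOL3 (0.35, 0.0265) and GND1 (0.22, 0.0386), and 20.4% of genes were called. With unequal array weights ZWF1 passed (0.18, adjusted p = 0.0291), where 47.6% of genes were called. FT30-3 at 36 mM replicate 1 was the highest of the 13 arrays for ZWF1 and SOL3 and the lowest for SOL4, and without it the centred changes were 0.18 ± 0.10 for ZWF1 (adjusted p = 0.200), 0.17 ± 0.10 for SOL3, -0.04 ± 0.21 for SOL4, 0.06 ± 0.07 for GND1 and 0.21 ± 0.09 for GND2. The calls on the values as deposited also held without that array for ZWF1 (0.37, adjusted p = 0.0173), SOL3 (0.0171), GND1 (0.0222) and GND2 (0.0102), and SOL4 was then at 0.15 (adjusted p = 0.634).

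**Figure D3:**
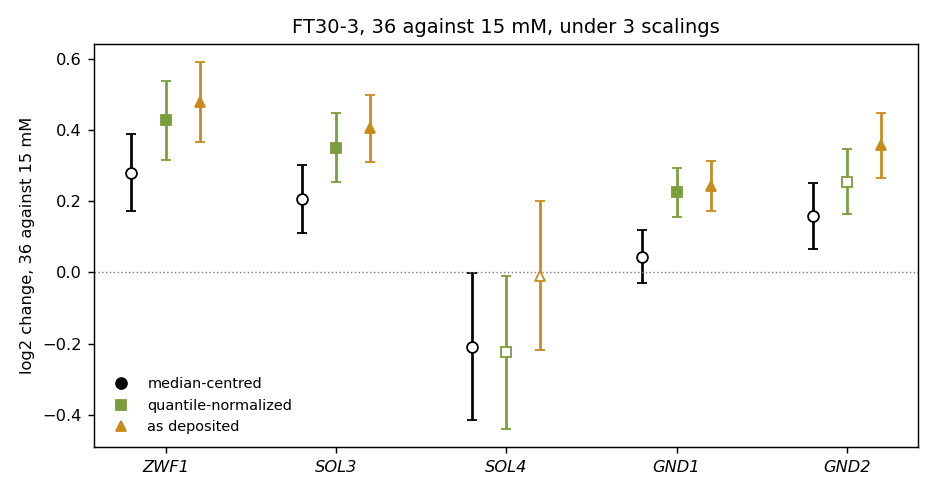
Log2 change ± SE of each gene at 36 against 15 mM in FT30-3 (y axis) after median centring, quantile normalization and no scaling, with filled symbols where the adjusted p was under 0.05. No gene has a filled symbol after centring, ZWF1, SOL3 and GND1 have one after quantile normalization, and these and GND2 have one as deposited.

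At 36 against 25 mM in FT30-3, none of the 5 passed, where 7.1% of genes were called, but 3 had an unadjusted p under 0.05, as had 22.5% of genes. SOL3 was 0.33 ± 0.11 higher at 36 mM (adjusted p = 0.0966), and it passed when the variance prior followed intensity (adjusted p = 0.0498, where 6.96% of genes were called). ZWF1 had 0.27 ± 0.12 (adjusted p = 0.222), GND1 0.18 ± 0.08 (adjusted p = 0.212) and GND2 0.02 ± 0.10 (adjusted p = 0.920). SOL4 had -0.58 ± 0.23 (adjusted p = 0.162), the only one of the 5 below 0. For this step all 36 mM arrays of ZWF1, SOL3 and GND1 were above all 25 mM arrays, as for 18.2% of genes, and all those of SOL4 were below, as for 15.9%.

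The relation between the minor and major gene of each pair was followed as the log2 difference within each array, which can be compared across arrays but gives no ratio of transcript amounts. For GND2 minus GND1 the values were -1.66, -1.78 and -1.72 in FT30-3 at 15 mM, against -1.60 and -1.42 in TMB3400. At 25 mM they were -1.40 and -1.49 in FT30-3, against -1.49, -1.40 and -1.21 in TMB3400. At 36 mM they were -1.68, -1.65 and -1.49 in FT30-3. The strains were apart at 15 mM, where GND2 was lower relative to GND1 in FT30-3, and overlapped at 25 mM. For SOL4 minus SOL3 the values in FT30-3 were -2.20, -2.80 and -3.003 at 15 mM, -1.99 and -2.36 at 25 mM, and -3.49, -2.93 and -2.83 at 36 mM. In TMB3400 they were -2.63 and -1.98 at 15 mM and -2.48, -1.99 and -1.85 at 25 mM. All 3 FT30-3 arrays at 36 mM were below all arrays at 25 mM for this pair. Among single genes, 21.4% were lower without overlap in FT30-3 than in TMB3400 at 15 mM, and 15.9% at 36 against 25 mM in FT30-3. The share among pairs of genes was not computed, and these gaps were not tested.

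**Figure D4:**
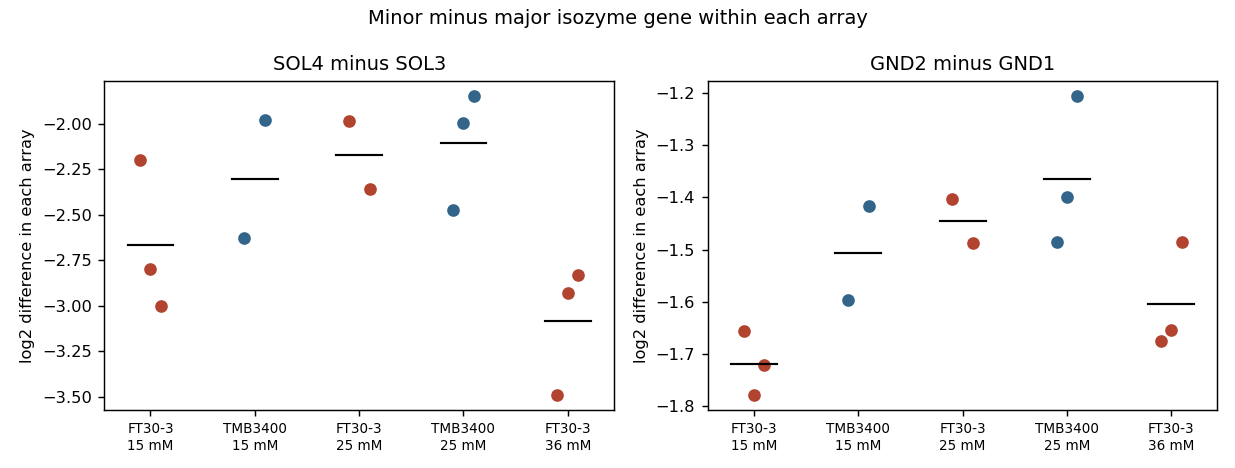
Log2 difference of SOL4 and SOL3, and of GND2 and GND1, within each array (points; the bar is the group mean), by strain and feed furfural, with FT30-3 in red and TMB3400 in blue. For SOL4 minus SOL3 the FT30-3 arrays at 36 mM average -3.08, and for GND2 minus GND1 the FT30-3 arrays at 15 mM average -1.72.

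The 5 genes did not vary as a single unit. Across the 13 arrays, which share strain and dose groups, SOL3 followed GND1 (Pearson r = 0.87) and ZWF1 (r = 0.80), and SOL4 followed GND2 (r = 0.73). SOL4 had negative correlations with ZWF1 (r = -0.33), SOL3 (-0.31) and GND1 (-0.11). After subtracting group means, the correlations were 0.85 for SOL3 with GND1, 0.68 for SOL3 with ZWF1, 0.62 for SOL4 with GND2 and -0.75 for SOL3 with SOL4. The paralogues GND1 and GND2 had r = 0.35, and 0.11 after subtracting group means. After that step SOL4 had -0.51 with ZWF1 and -0.40 with GND1. ZWF1 had 0.32 with GND1 and -0.32 with GND2, and SOL3 had -0.22 with GND2. By rank (Spearman), GND1 with GND2 had 0.12 and ZWF1 with SOL4 -0.14. These are descriptions of 13 arrays and carry no test.

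Among 5400 other genes above background on at least 1 array, those most like each of the 5 over the 13 arrays were different sets. ZWF1 was nearest to BPL1, a biotin ligase gene (r = 0.96), SPT5, a transcription elongation factor gene (0.96), and SAN1, a nuclear ubiquitin ligase gene (0.96). SOL3 was nearest to ADE3, a one-carbon enzyme gene (0.95), AVL9 (0.95) and MET17, a sulfur amino acid enzyme gene (0.92). GND1 was nearest to GIT1, a glycerophosphoinositol permease gene (0.88), then SOL3 (0.87) and YFR012W-A (0.87). SOL4 was nearest to SHH4 (0.93), YKL091C (0.93) and GTT1, a glutathione transferase gene (0.90), and GND2 to EFM4, a lysine methyltransferase gene (0.91), YFH1, the yeast frataxin gene (0.87), and YAL065C (0.86). Without FT30-3 at 36 mM replicate 1 these 15 correlations were 0.86 to 0.95. On the values as deposited they were 0.78 (GND1 with YFR012W-A) to 0.97, and GND1 had 0.97 with SOL3 and 0.90 with GIT1. The genes were chosen for high r on these same arrays, so neither range tests the likeness.

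The rest of the pathway was read from lists of its neighbours, whose counts stand against the shares of all genes called. Averaged between the strains that share was 11.2%, and 19.3% without FT30-3 at 36 mM replicate 1. That array is in none of the groups of the strain comparisons or the interaction. Leaving it out changed no strain difference, only the estimate of spread that all groups share. Of the 13 arrays left out in turn, it gave the most genes called between the strains averaged. At 36 against 15 mM the share was 22.2% after centring, 32.1% on the values as deposited and 23.6% after centring without that replicate. The non-oxidative branch links pentose phosphates and glycolysis. Of its 7 genes listed, none was called between the strains when averaged, where 11.2% of all genes were, and their median was -0.18. At 36 against 15 mM, 1 rose and 1 fell, where 22.2% of all genes were called. SHB17, sedoheptulose bisphosphatase, had a change of 0.99 ± 0.19 (adjusted p = 0.00395), with 2044 ± 386 at 36 mM and 1034 ± 218 at 15 mM (SD, n = 3 each). RKI1, ribose-5-phosphate isomerase, fell (-0.58 ± 0.15, adjusted p = 0.0197), a call lost on the values as deposited (-0.38, adjusted p = 0.0882) and when replicate 1 or 2 of the 15 mM cultures (0.0797 and 0.0560) or replicate 3 of the 36 mM cultures (0.0633) was left out. The transketolase gene TKL1 (-0.05 ± 0.07) and the transaldolase gene TAL1 (-0.09 ± 0.07), which carry the main flow of this branch, did not pass.

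Of 7 genes that feed or draw on glucose 6-phosphate, 1 rose and none fell at 36 against 15 mM after centring, 3 rose on the values as deposited, and 1 rose and 1 fell without FT30-3 at 36 mM replicate 1. Of all genes, 22.2%, 32.1% and 23.6% were called in these settings. The gene called after centring with all arrays was HXK2, a hexokinase gene, at 0.86 ± 0.17 (adjusted p = 0.00520), with 5761 ± 1367 at 36 mM and 3157 ± 570 at 15 mM. Between the strains, averaged over both levels, PGM1 was higher (0.42 ± 0.12, adjusted p = 0.0468) and PGM2 lower (-0.29 ± 0.08, adjusted p = 0.0386) in FT30-3. Both encode phosphoglucomutase, and each call was lost in 12 of 22 alternatives (highest adjusted p = 0.173 and 0.143). PGM1 averaged 333 ± 23.2 in FT30-3 (n = 3) and 358 ± 4.13 in TMB3400 (n = 2) at 15 mM, and 351 ± 82.5 in FT30-3 (n = 2) and 180 ± 12.5 in TMB3400 (n = 3) at 25 mM. Its strain difference passed at 25 mM alone (0.94 ± 0.17, adjusted p = 0.00783; lost without replicate 1 of FT30-3 at 25 mM, 0.0978), and in TMB3400 it fell at 25 against 15 mM (-0.99 ± 0.17, adjusted p = 0.0118; lost without replicate 1 or 2 at 15 mM, 0.143 and 0.132, or replicate 2 at 25 mM, 0.0515). The difference between the strains in this step did not pass (interaction 1.04 ± 0.24, adjusted p = 0.114), but it passed without FT30-3 at 36 mM replicate 1 (1.04 ± 0.18, adjusted p = 0.0261, where 0.899% of genes were called).

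All 5 PRS genes, whose products turn ribose 5-phosphate into the precursor of nucleotides, had values below 0 in FT30-3 against TMB3400, with a median of -0.25, and 1 of them, PRS4, was called (-0.37 ± 0.09, adjusted p = 0.0226), where 11.2% of all genes were. Without FT30-3 at 36 mM replicate 1, 3 of the 5 were called lower, PRS1 (-0.27, adjusted p = 0.0244), PRS3 (-0.25, 0.0285) and PRS4 (-0.37, 0.00220), where 19.3% of all genes were called. The differences were the same as with all arrays, since that array is in none of the groups compared. The PRS4 call was lost without replicate 1 of FT30-3 at 15 mM (adjusted p = 0.0519) or 25 mM (0.0780), without replicate 1 or 2 of TMB3400 at 15 mM (0.0752 and 0.0821), and without replicate 1 of TMB3400 at 25 mM (0.0503). At 36 against 15 mM none of the 5 was called after centring, 2 rose on the values as deposited, and PRS3 fell without FT30-3 at 36 mM replicate 1 (-0.31, adjusted p = 0.0460).

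Among 10 genes of other NADPH sources, 2 rose and 2 fell after centring at 36 against 15 mM, 3 rose and 1 fell on the values as deposited, and 1 rose and 3 fell without FT30-3 at 36 mM replicate 1. Of all genes, 22.2%, 32.1% and 23.6% were called in these settings. IDP2, the cytosolic NADP-dependent isocitrate dehydrogenase gene, fell (-1.16 ± 0.14, adjusted p = 0.000254), with 3144 ± 468 at 36 mM and 7022 ± 874 at 15 mM. ALD4, a mitochondrial aldehyde dehydrogenase gene, fell (-0.46 ± 0.09, adjusted p = 0.00464), a call lost on the values as deposited (0.0579) and with quantile normalization (0.0613). YEF1, an NAD(H) kinase gene, rose by 0.63 ± 0.10 (adjusted p = 0.00189). IDP1, the mitochondrial relative of IDP2, rose by 0.38 ± 0.11 (adjusted p = 0.0374), a call lost in 8 of 22 alternatives, including without FT30-3 at 36 mM replicate 1 (adjusted p = 0.0793). ALD6, the main cytosolic acetaldehyde dehydrogenase gene and an NADPH source, did not pass with all arrays (-0.19 ± 0.07, adjusted p = 0.0682) and passed without that replicate (-0.21 ± 0.07, adjusted p = 0.0477).

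Between the strains, averaged over both levels, 1 of the 10 was higher in FT30-3 and 2 were lower, where 11.2% of all genes were called. Without FT30-3 at 36 mM replicate 1, 1 was higher and 4 were lower, where 19.3% of all genes were called, and the added calls were IDP1 (-0.28, adjusted p = 0.0193) and UTR1, a second NAD kinase gene (-0.33, adjusted p = 0.0261). These differences were also unchanged, since that array is in none of the groups compared. POS5, a mitochondrial NADH kinase gene on chromosome XVI, was higher by 0.46 ± 0.09 (adjusted p = 0.00793). The 424 genes of that chromosome had a median of 0.43 in this comparison, and whether POS5 differed from them was not tested. MAE1, the malic enzyme gene, was lower (-0.56 ± 0.11, adjusted p = 0.00653), and so was YEF1 (-0.35 ± 0.08, adjusted p = 0.0185). The YEF1 call was lost without replicate 2 of FT30-3 at 25 mM (adjusted p = 0.0722) or replicate 1 or 2 of TMB3400 at 15 mM (0.0742 and 0.0630).

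STB5 encodes the zinc-cluster activator known for switching on pentose phosphate genes when NADPH is short, and its mRNA did not pass, at -0.03 ± 0.09 between the strains (adjusted p = 0.862) and 0.05 ± 0.12 at 36 against 15 mM (adjusted p = 0.779). Of the 4 regulator genes, MSN2 was higher in FT30-3 averaged over both levels (0.32 ± 0.08, adjusted p = 0.0270) and MSN4 lower (-0.69 ± 0.15, adjusted p = 0.0146). In that comparison 11.2% of all genes were called, and 22.2% at 36 against 15 mM. MSN2 and MSN4 encode related activators of the general stress response. MSN2 averaged 2055 ± 45.1 in FT30-3 and 1969 ± 56.2 in TMB3400 at 15 mM, and 2020.5 ± 185 in FT30-3 and 1345 ± 92.5 in TMB3400 at 25 mM. The strain difference in MSN2 was 0.06 ± 0.12 at 15 mM (adjusted p = 0.880) and 0.59 ± 0.12 at 25 mM (adjusted p = 0.0124), a call lost in 2 of 22 alternatives, with only the compared groups fitted (0.0614) and without replicate 1 of FT30-3 at 25 mM (0.131). In TMB3400 MSN2 fell at 25 against 15 mM (-0.55 ± 0.12, adjusted p = 0.0410), a call lost in 12 of 22 alternatives (highest adjusted p = 0.308), and the interaction did not pass (0.52 ± 0.16, adjusted p = 0.4999). The averaged MSN2 call was lost in 8 of 22 alternatives (highest adjusted p = 0.104), and the MSN4 call without TMB3400 at 15 mM replicate 2 (0.0686). At 36 against 15 mM MSN4 fell (-0.71 ± 0.19, adjusted p = 0.0241), a call lost on the values as deposited (0.0751) and when replicate 1 or 2 of the 36 mM cultures (0.0553 and 0.0596) or replicate 1 of the 15 mM cultures (0.0964) was left out. Without replicate 1 of the 36 mM cultures, YAP1, an oxidative stress activator gene, was called lower in this comparison (-0.50 ± 0.12, adjusted p = 0.0121), against -0.36 ± 0.13 (adjusted p = 0.0735) with all arrays. SOL1 and SOL2, relatives of the lactonase genes, did not pass in either comparison after centring, and 1 of them rose at 36 against 15 mM on the values as deposited. Of 6 minor or stress-linked isozyme genes of sugar metabolism, PGM2 was the only one called between the strains averaged, where 11.2% of all genes were called. None was called at 36 against 15 mM, where 22.2% of all genes were. In that comparison all 6 had values below 0 after centring (median -0.19), and 46.4% of all genes had values above 0. Before centring the median gene was 0.17 higher at 36 than at 15 mM, so these signs depend on the scaling. GLK1, the glucokinase gene, fell there without FT30-3 at 36 mM replicate 1 (-0.24, adjusted p = 0.0378), where 23.6% of all genes were called.

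**Figure D5:**
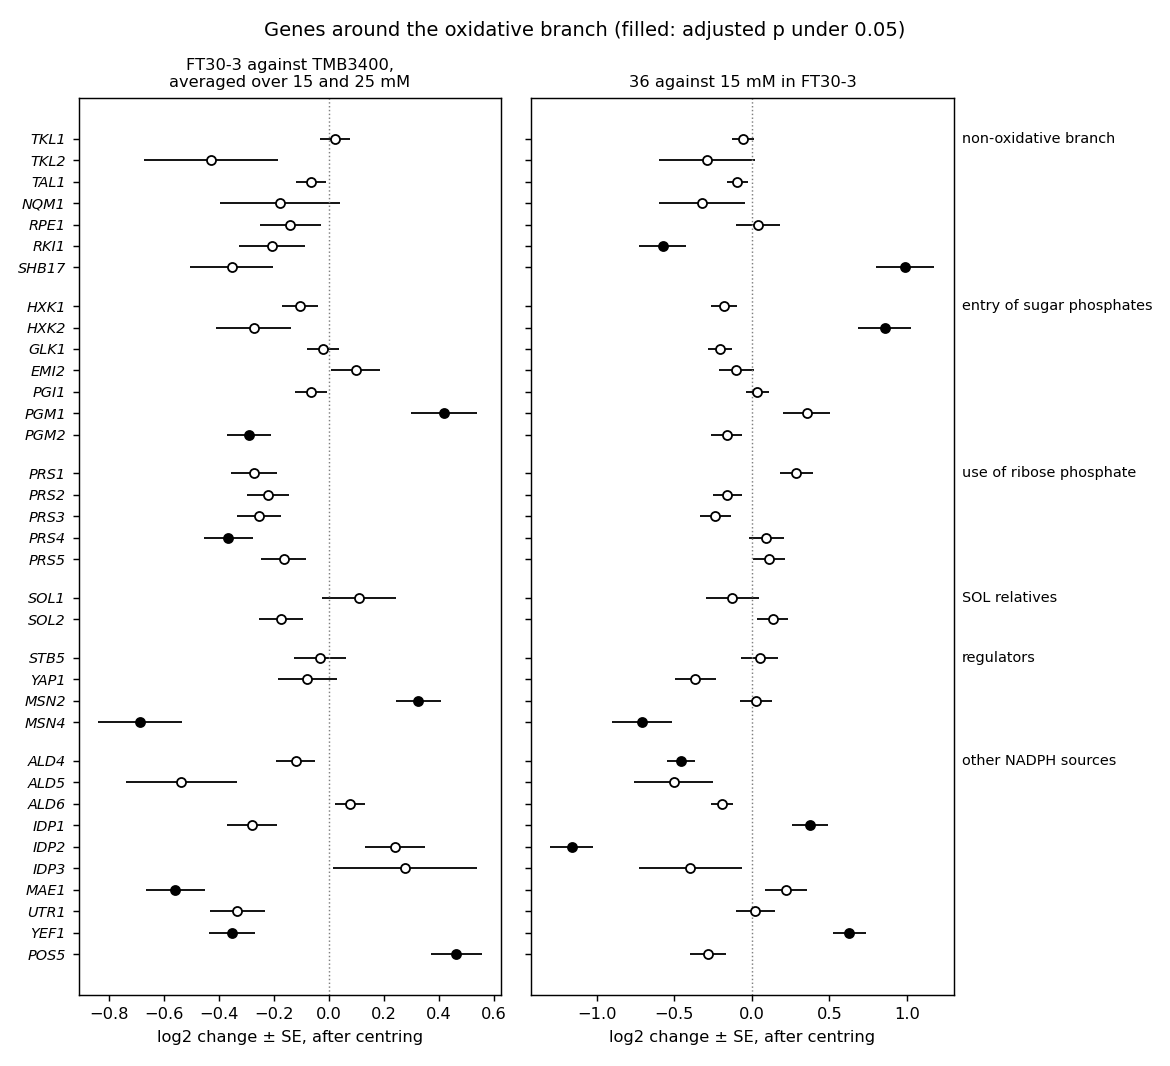
Log2 change ± SE after centring (x axes, which differ in range) of genes around the oxidative branch, grouped by list, for FT30-3 against TMB3400 averaged over 15 and 25 mM (left) and 36 against 15 mM in FT30-3 (right); filled points had an adjusted p under 0.05. IDP2 at -1.16, SHB17 at 0.99 and HXK2 at 0.86 lie farthest from 0 on the right.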

How the data were processed

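The authors deposited intensities, linear and 1 for each probe set on each array. The submitters' processing notes name R 2.7.2, and no source used here states the summary method, background correction or normalization. Symbols came from the platform annotation, updated through RefSeq gene identifiers, which held all 5 genes. Of 10928 probe sets, 5498 match 1 S. cerevisiae gene and 1746 an S. pombe gene. For 47 genes with more than 1 probe set the brightest was kept, giving 5449 genes.

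The log2(intensity + 1) values were centred on each array's median over S. cerevisiae probe sets. A mean for each of the 5 groups was estimated from the 13 arrays in limma 3.58.1 (R 4.3.3; lmFit, eBayes, two-sided), and p-values were adjusted by Benjamini-Hochberg within each comparison. The number of arrays limits the precision. Members, lists and tests were chosen with earlier results of these data known. Named genes are the 5 members, the called genes of each list with the smallest p (at most 4) and the 3 most correlated with each member. TKL1, TAL1, ALD6, STB5, SOL1, SOL2, and the genes called without FT30-3 at 36 mM replicate 1, were named after their values were seen. The procedure was tested on simulated data. Alternatives covered centring, quantile normalization, pseudocount, dim genes, probe sets, variance prior, array weights, samples fitted, a replicate block and leaving out each array. Those of list genes and correlations, and the deposited values without FT30-3 at 36 mM replicate 1, were added after the data were seen.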

Additional observations from a re-analysis of the deposited data

How the results depend on the processing

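The number of the 5 genes called was 0 in every alternative for each strain comparison at 1 level, for 25 against 15 mM in either strain and for the interaction. Averaged over both levels it was 1 as reported, 0 with quantile normalization and 2 with array weights. Of all genes, 11.2%, 10.9% and 16.8% were called in these settings. It was 0 to 1 when each array was left out, where 345 to 1049 of 5449 genes were called. For 36 against 15 mM it was 0 as reported, 4 on the values as deposited, 3 with quantile normalization and 1 with array weights. Here 22.2%, 32.1%, 20.4% and 47.6% of all genes were called. For 36 against 25 mM it was 1 with a variance prior that followed intensity, where 6.96% of genes were called. The cause was not tested, beyond the shift of the array medians. Values that changed sign were all uncalled. For 25 against 15 mM in TMB3400 these were SOL3 with array weights (-0.0039) and GND1 as deposited (0.13) and with quantile normalization (0.12). In FT30-3 they were SOL3 (0.043 and 0.036) and GND1 (0.023 and 0.058) in those same settings, and ZWF1 with the replicate block (-0.011). The others were SOL4 for 36 against 15 mM with array weights (0.030) and as deposited without FT30-3 at 36 mM replicate 1 (0.15), GND2 for 36 against 25 mM with the replicate block (-0.028), and in the interaction ZWF1 with quantile normalization (0.031) and GND2 with array weights (-0.084). With each array left out, signs changed within -0.031 to 0.015 for GND1, -0.027 to 0.11 for SOL3, -0.012 to 0.49 for SOL4 and -0.011 to 0.12 for ZWF1 (25 against 15 mM in TMB3400), -0.10 to 0.13 for ZWF1 (the same step in FT30-3), -0.0093 to 0.072 for GND1 (36 against 15 mM), -0.049 to 0.095 for GND2 (36 against 25 mM), and in the interaction -0.072 to 0.072 for GND2, -0.12 to 0.39 for SOL4 and -0.17 to 0.066 for ZWF1.

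Same-numbered arrays of different groups correlated in their deviations from group means at r = -0.40 to 0.59 (median 0.19), and 13 of 23 pairs were over 0.1. Arrays of different number correlated at r = -0.57 to 0.49 (median -0.12), and 18 of 44 pairs were over 0.1. Of the 13 arrays, 7 had an array of their own number as the closest of other groups. Deviations within a group cancel out, so these correlations are tied to each other and the pairs are not separate observations. The counts to be had without any pairing were not computed. Whether arrays of 1 number share a batch was not tested, and the reported fits carry no replicate term. With the replicate number as a block, GND2 averaged over both levels was -0.27 (adjusted p = 0.0265), and no call on the 5 genes changed. Genes called of all genes differed by more than 1.5 times from the reported 118, 365, 611, 87, 117, 1211, 387 and 37 (the strain at 15 mM, at 25 mM and averaged, 25 against 15 mM in TMB3400 and FT30-3, 36 against 15 mM, 36 against 25 mM, and the interaction) in some settings. They ran from 4 to 463, 126 to 591, 345 to 1049, 31 to 209, 73 to 204, 732 to 2594, 74 to 414 and 21 to 57. Of the 25 list results called, tested in 22 settings each, 450 of 550 kept their call, 100 lost it and 0 changed sign.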
